A study of Mus musculus with 2 samples.

Results

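The epidermal growth factor (EGF) receptor family and its ligands were examined in whole pancreas of mice that lack nardilysin in the pancreas. The set held 10 genes, 4 receptors (Egfr, Erbb2, Erbb3, Erbb4) and 6 ligands (Egf, Tgfa, Hbegf, Areg, Ereg, Btc), out of 22911 genes that could be named on the array. Its members were chosen by name, and they were represented by the 14 non-control probes whose RefSeq accession belongs to one of them, of 56604 probes in all. The WT group was 1 RNA sample from the pancreas of a C57BL/6 male aged 5 weeks. The Nrdc-cKO group was 1 RNA sample from a C57BL/6 male of the same age carrying Ptf1a-Cre and Nrdc flox/flox. Ptf1a is active in pancreatic progenitors and acinar cells, so recombination is directed to the cells that descend from them, while the RNA came from the whole gland with its blood vessels, stroma, immune cells and fat. The labels do not say whether the WT mouse carried Cre or a floxed allele, or whether RNA of several mice was pooled. There was 1 array in each group, so no difference below has an error across animals and none could be tested.

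The receptors are tyrosine kinases of the cell surface that pair up when a ligand binds and then signal through the RAS, ERK and PI3K pathways. ErbB2 binds no known ligand and acts as a partner of the others, and ErbB3 has a weak kinase and recruits PI3K. The ligands are made as membrane-anchored precursors and are released by cleavage outside the cell, a step carried out by ADAM proteases, and nardilysin is known to enhance the shedding of HB-EGF and other precursors. In the adult pancreas, EGF receptor signalling is best known for its part in the conversion of acinar cells to duct-like cells.

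On the Nrdc-cKO array Egfr was higher and Egf was lower, relative to the bulk of probes on each array. Egfr had a log2 difference, Nrdc-cKO minus WT, of 1.35 (2.54-fold higher, mean of 3 probes), and Egf had one of -2.87 (7.31-fold lower, 1 probe). Erbb2 stood at 0.60 and Hbegf at -0.85, both short of 2-fold, and Hbegf was higher instead, at 1.04, when the arrays were scaled to spike-in controls. Tgfa and Btc gave signal well above background in Nrdc-cKO alone, and Erbb3, Erbb4, Areg and Ereg on neither array. Of the 4 members measured on both arrays, 1 passed 2-fold upwards and 1 passed it downwards, beside 12.8% (1666) and 17.3% (2252) of the 13001 genes measured. Of the genes past 2-fold, 42.5% were higher in this scaling, between 52.1% and 56.6% with normexp, 53.0% with the percentile taken over detected probes, 72.9% in the table of values from the authors and 98.9% with spike-in controls. With so few members, these counts show no more than the single values do.

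The targeted gene, Nrdc, stood at -3.21 (9.25-fold lower), and whether its probe lies in the deleted part is not given in the labels. A level below is the log2 processed signal minus the 75th percentile of the array. That percentile was a signal of 70.8 in WT and 227 in Nrdc-cKO, so the scaling takes 1.68 from every unscaled log2 difference. The only error at hand for a single spot is the scanner software's own estimate, written after ±, which covers the reading of the spot and not the animal, the dissection or the labelling. The share of non-control spots called well above background was 46.3% for WT and 60.3% for Nrdc-cKO, and both arrays were read in the same scan of 1 slide.

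Egfr, the receptor of EGF, TGF-alpha, amphiregulin and the other ligands, was read by 3 probes. The probe A_52_P106259, designed on the transcript NM_207655, had a signal of 139.6 ± 14.2 in WT and 1286 ± 129 in Nrdc-cKO, which are levels of 0.98 and 2.50 and a log2 difference of 1.52 ± 0.21. The other probe on NM_207655, A_52_P674338, went from 17.7 ± 3.25 to 230.1 ± 23.2, a log2 difference of 2.02 ± 0.30, and its WT signal was close to the lowest one called detected on that array, 11.4. The probe on NM_007912, A_52_P56471, went from 54.2 ± 6.14 to 245.8 ± 24.8, a log2 difference of 0.50 ± 0.22. All 3 probes were higher in Nrdc-cKO, with differences that spread over 1.52 log2 units, more than the scanner error of any of them. NM_207655 is the full-length receptor and NM_007912 a shorter form that ends before the kinase domain, but probe positions were not used here and a probe may read both. In the ranking of all measured genes, 1173 (9.02%) had a higher difference than the Egfr mean. The 2-fold call was lost with normexp background correction, at 0.89 with the 75th percentile and 0.91 with quantile scaling, and the value was 1.01 when the dim probe was left out by a filter for bright probes.

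Erbb2, the ligandless partner receptor, was read by 2 probes on NM_001003817. The brighter one, A_55_P2809338, had signals of 75.4 ± 7.97 in WT and 439.1 ± 44.0 in Nrdc-cKO, a log2 difference of 0.86 ± 0.21. The dimmer one, A_52_P49250, had 37.4 ± 4.65 and 152.2 ± 15.5, a difference of 0.34 ± 0.23, and its lowest value under the other scalings was -0.05, with normexp and the 75th percentile. Both were higher in Nrdc-cKO in the main scaling, by 1.81-fold and 1.27-fold. The gene's mean of 0.60 had 2586 genes (19.9%) above it.

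Neither of the other receptors gave a usable signal. Erbb3, the partner with the weak kinase, had a signal of 2.41 ± 2.42 in WT and 3.70 ± 2.65 in Nrdc-cKO, and Erbb4, a receptor of neuregulins and betacellulin, had 2.92 ± 2.93 and 3.13 ± 3.14. The scanner error was as large as the signal or, for Erbb3 in Nrdc-cKO, most of it, and each gene had 1 probe. Among all named genes, 56.7% were detected on both arrays and 30% on neither.

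**Figure D1:**
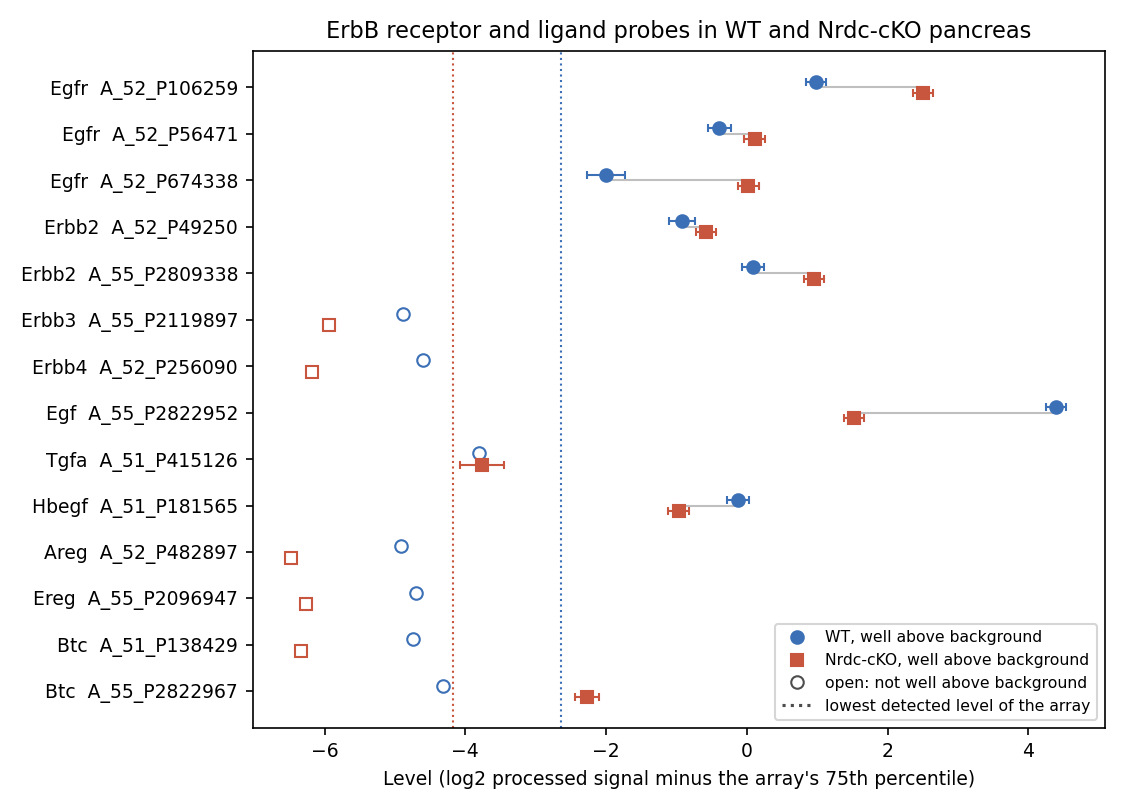
Levels of the 14 probes of the EGF receptor family and its ligands on the WT array (circles) and the Nrdc-cKO array (squares), on a log2 scale relative to the 75th percentile of each array; bars are the scanner software's error and open symbols were not well above background. The 3 Egfr and 2 Erbb2 probes lie to the right in Nrdc-cKO (1 Erbb2 probe is at -0.05 with normexp), Egf and Hbegf to the left in this scaling (Hbegf is at 1.04, to the right, with spike-in scaling), and 5 probes were detected on neither array.

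Egf, the founding ligand, had 1 probe, on NM_010113. Its signal was 1482 ± 148 in WT and 651.7 ± 65.2 in Nrdc-cKO, levels of 4.39 and 1.52. The log2 difference was -2.87 ± 0.20. Egf was also lower before any scaling, by 2.27-fold, whereas Hbegf and all Egfr and Erbb2 probes were higher before scaling. Of the genes measured, 119 (0.915%) had a lower difference than Egf, and its value stayed negative in every alternative run, from -2.87 to -0.98.

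Hbegf, the heparin-binding ligand whose shedding nardilysin is known to enhance, had a signal of 65.1 ± 7.04 in WT and 115.9 ± 11.9 in Nrdc-cKO. After scaling its levels were -0.12 and -0.97, a log2 difference of -0.85 ± 0.22 (1.80-fold lower), with 2816 genes (21.7%) below it. Its direction thus rests on the scaling: the spot itself was 1.78-fold brighter in Nrdc-cKO, 0.83 log2 units, against the 1.68 by which the 75th percentile differed. It lay between -0.88 and -0.36 in the other scalings apart from the spike-in controls.

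Betacellulin, Btc, had 2 probes on 1 transcript that differed in detection. A_55_P2822967 went from 3.56 ± 2.92, not well above background, to 47.0 ± 5.67, while A_51_P138429 stayed at 2.64 ± 2.65 and 2.83 ± 2.84. Set against the lowest detected signal of the WT array, the first probe was at least 1.29-fold higher in Nrdc-cKO after scaling and at least 4.13-fold higher before it. No bound above 1 was left with normexp and the 75th percentile.

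Tgfa, the ligand that also binds Egfr with high affinity, went from 5.06 ± 3.06, not well above background, to 16.8 ± 3.67. Before scaling the Nrdc-cKO signal was at least 1.48-fold higher, and after scaling it gave no bound above 1 except with spike-in controls (at least 1.70-fold), so no direction is given. Detection in Nrdc-cKO alone was seen for 12.4% of all named genes and detection in WT alone for 0.873%, and the 2 of 10 members detected on 1 array were both of the more common kind.

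Areg (amphiregulin) and Ereg (epiregulin), ligands that are often induced in injured epithelium, were at 2.34 ± 2.35 and 2.72 ± 2.73 in WT. In Nrdc-cKO they were at 2.56 ± 2.57 and 2.94 ± 2.95, so no difference was detectable for either probe. In the RefSeq gene table of GRCm38.p6, Epgn, Ereg, Areg and Btc are consecutive protein-coding genes of chromosome 5. Epgn, which encodes the ligand epigen and is no member of the set, was not detected on either array, so the Btc probe was the only signal from this group of 4 genes.

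**Figure D2:**
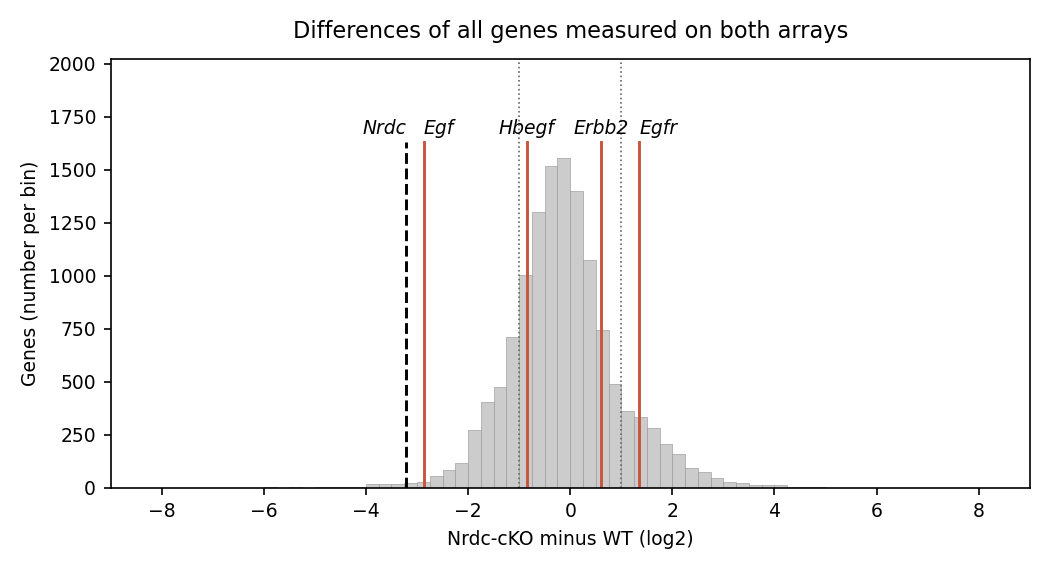
Number of genes per bin of 0.25 log2 units for the Nrdc-cKO minus WT difference of 13001 genes measured on both arrays, with lines at Egfr, Erbb2, Hbegf, Egf and, dashed, Nrdc, and dotted lines at 2-fold. Egf at -2.87 lies in the far left tail near Nrdc, Egfr at 1.35 in the right flank, and Erbb2 and Hbegf within 2-fold (Hbegf is at 1.04 with spike-in scaling).

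Because a constant scaling moves all genes of an array alike, the gap between members is free of it. The Egfr difference exceeded that of Egf by 4.21 log2 units (18.6-fold), and by 3.12 to 4.21 over the main scaling and its 8 alternatives, of which 4 are constants that cannot move it. The Egfr difference exceeded that of Hbegf by 2.20 (1.41 to 2.25), and that of Erbb2 by 0.75 (0.55 to 0.77). Erbb2 stood above Hbegf by 1.45 (0.86 to 1.48), and Egf stood below Hbegf by 2.02 in the main scaling, with values of -2.02 to -1.61. The order Egfr, Erbb2, Hbegf, Egf was kept in all of these scalings. The gap between Egfr and Erbb2 was smaller than the range of the 3 Egfr probes, and it was 0.15 with bright probes only and 0.66 by the brightest probe of each gene.

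**Figure D3:**
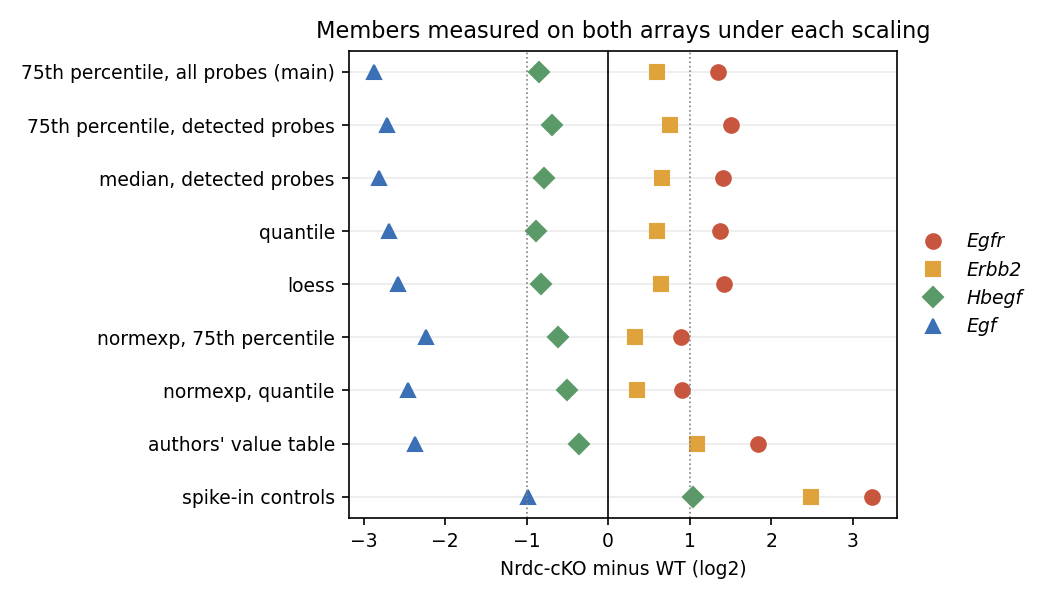
Nrdc-cKO minus WT log2 differences of the 4 members measured on both arrays, under the main scaling and 8 alternatives; dotted lines mark 2-fold. Egfr and Erbb2 lie right of 0 and Egf left of 0 in each row, Egfr falls inside 2-fold with normexp, and Hbegf crosses 0 with spike-in controls.

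Among the members measured on both arrays, Egfr had the highest difference and Egf the lowest. Erbb2, the other receptor measured, was higher but short of 2-fold. The sequences before the start of Egfr, Erbb2 and Egf are shown. They are the 250 bases before the gene start from RefSeq on GRCm38.p6, 5′ to 3′ on the strand of the gene, for Egfr at chr11:16751953-16752202 (plus strand), Erbb2 at chr11:98412234-98412483 (plus strand) and Egf at chr3:129755323-129755572 (minus strand, the outer of 2 listed starts). Capitals mark matches, on either strand, to the GC box GGGCGG, the TATA box TATAAA, the TATA-like TTTAAA, the CCAAT box CCAAT, the AP-1 site TGANTCA and the E-box CANNTG. The letters TTTAAA were added to the search after the sequences had been seen, and no matches of different motifs overlapped.
Egfr: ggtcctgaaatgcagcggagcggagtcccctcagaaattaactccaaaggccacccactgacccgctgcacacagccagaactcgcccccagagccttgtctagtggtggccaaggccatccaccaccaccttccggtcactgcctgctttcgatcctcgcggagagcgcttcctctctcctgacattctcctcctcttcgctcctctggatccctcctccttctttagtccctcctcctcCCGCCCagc
Erbb2: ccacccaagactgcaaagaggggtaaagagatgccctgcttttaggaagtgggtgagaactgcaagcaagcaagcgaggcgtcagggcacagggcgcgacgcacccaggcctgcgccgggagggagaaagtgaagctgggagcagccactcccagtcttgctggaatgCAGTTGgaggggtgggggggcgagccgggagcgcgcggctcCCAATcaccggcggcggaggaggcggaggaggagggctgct
Egf: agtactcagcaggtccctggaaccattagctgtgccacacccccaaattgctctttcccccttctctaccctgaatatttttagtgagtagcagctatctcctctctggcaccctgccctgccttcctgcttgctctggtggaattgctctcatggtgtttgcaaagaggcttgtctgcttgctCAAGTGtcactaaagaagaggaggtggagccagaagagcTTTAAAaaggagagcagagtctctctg
The Egfr window held 11 CpG dinucleotides and 1 GC box, 4 bases from the start, with no match to the other motifs. The Erbb2 window held 16 CpG dinucleotides, a CCAAT box 37 bases before the start and an E-box. The outer Egf window held 0 CpG dinucleotides, TTTAAA at 22 bases before the start and an E-box, whereas the window of the other listed Egf start held 15 CpG dinucleotides, an E-box and no TTTAAA. The median over 32851 such windows was 6 CpG dinucleotides, and 32.7% held a GC box, 12.4% TATAAA, 12.1% TTTAAA, 33.8% CCAAT, 6.75% the AP-1 site and 66.2% an E-box. A match to these letters is a description of the window and not a site of binding. Windows were matched for 7 of the 10 members.

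Most genes of the relay that carries the receptor signal were within 2-fold. Of 27 adaptors and kinases measured on both arrays, 1 was at least 2-fold higher, the PI3K catalytic subunit Pik3ca at 1.62, and 1 was lower, the kinase Akt1 at -1.13, which was at -0.67 with normexp and the 75th percentile and at 0.76 with spike-in scaling. The median was 0.06, beside -0.18 over all genes; with spike-in scaling 26 were higher and the median was 1.96, and 4 were higher in the value table. Of 20 genes that restrain or degrade the receptors, 1 was at least 2-fold higher, Socs5 at 1.06 (0.95 with normexp and quantile scaling), and 0 were lower, with a median of 0.22. That median was -0.15, with 1 lower, under bright probes only, and with spike-in scaling it was 2.11, with 19 higher. Dusp4, an ERK phosphatase, was detected on the Nrdc-cKO array only (at least 1.79-fold higher), as was the adaptor Gab1 of the relay (at least 1.89-fold).

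Transcripts that ERK signalling is known to induce lay mostly on the higher side. Among the 15 with a value, 8 passed 2-fold upwards and 0 downwards, beside 12.8% and 17.3% of all genes measured. With bright probes only, 6 of 12 passed upwards, and with spike-in scaling 14 did. The median was 1.15, and it was 1.01 to 1.64 in the other settings apart from spike-in scaling (3.04). Myc (-0.98, 1.97-fold lower, or 0.91 with spike-in scaling), Fosb (-0.24) and Etv5 (-0.03) lay below 0 in the main scaling. The transcription factors Egr2 (2.51) and Fos (2.05), the urokinase receptor Plaur (1.81, or 0.91 with normexp and the 75th percentile) and Phlda1 (1.70) were the furthest from 0 in the list. Ptgs2, which encodes an inducible cyclooxygenase, was seen in Nrdc-cKO alone and was at least 2.44-fold higher. Other signals induce these transcripts too, tissue handling included, and which one did so here was not tested.

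The ligands of Erbb3 and Erbb4 outside the set were dim. Of the neuregulins, Nrg1 and Nrg3 were detected on neither array. Nrg4 was detected on the Nrdc-cKO array only, at least 2.06-fold higher, and Nrg2 likewise, at least 1.66-fold higher. No neuregulin was measured on both arrays.

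Genes that release or mature the ligands had a median of 0.44 over 14 measured, with 4 at least 2-fold higher (2 with bright probes only, 13 with spike-in scaling) and 1, Nrdc itself, lower. The higher ones were the metalloproteases Adam8 (2.04), Adam19 (1.43, or 0.62 with normexp and the 75th percentile) and Adam15 (1.27) and the inhibitor Timp3 (1.32), whereas Adam17 and Adam10, the main sheddases of this family's ligands, stood at 0.48 and 0.43. Among 29 other receptor tyrosine kinases the median was 0.69, with 11 at least 2-fold higher and 3 lower, beside 12.8% and 17.3% of all genes measured. The higher count was 4 with normexp and the 75th percentile, 5 with normexp and quantile scaling (Egfr too is under 2-fold in both), 7 with bright probes only, 17 in the value table and 26 with spike-in scaling. Fgfr4 (2.41), Pdgfra (2.21), Mst1r (1.95, or 0.86 with normexp and the 75th percentile) and Fgfr3 (1.81) were further from 0 than Egfr. The lower ones were Tyro3 (-2.04), Ephb3 (-1.75, or 0.15 with spike-in scaling) and Kit (-1.07, or 0.82 with spike-in scaling). Epha4 was detected on the Nrdc-cKO array only, at least 2.59-fold higher.

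**Figure D4:**
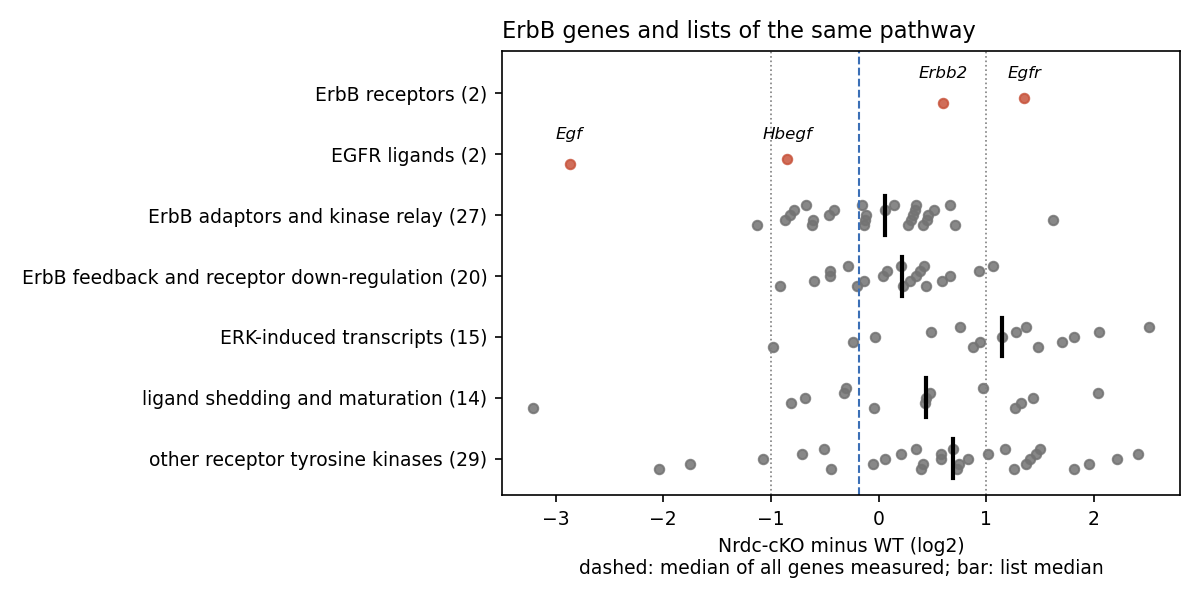
Nrdc-cKO minus WT log2 difference of each gene measured on both arrays (dots) in the ErbB receptors, the EGFR ligands and 5 lists of related genes, with the number measured in brackets; black bars are list medians, the dashed line the median of all genes and dotted lines 2-fold. The ERK-induced transcripts have a median of 1.15 and the relay genes one of 0.06; every value and the place of 0 depend on the scaling, and with spike-in scaling all dots move right by about 1.89.

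Markers of several cell types moved with these members, and in a whole gland fewer cells of a type and less RNA per cell cannot be told apart. Beside Egf, all 12 acinar markers were at least 2-fold lower in the main scaling, with a median of -1.83, among them the acinar transcription factors Ptf1a and Bhlha15 at -2.72 each. Fewer were lower with loess (5, median -0.86), quantile scaling (4, -0.46), normexp and quantile scaling (4, -0.58) and spike-in scaling (2, 0.06). Ctrb1 and Prss2 were above 0 in the last 2 of these. With spike-in scaling Rbpjl (0.60), Cpa1 (0.20), Cela2a (0.17), Cpb1 (0.11) and Cel (0.01) were above 0 too. Cela1, Pnlip, Ptf1a, Bhlha15 and Gp2 stayed below 0 there. The summed level of the list, in multiples of the 75th percentile signal, was 42400 in WT and 10400 in Nrdc-cKO. This sum and those below were computed in the main scaling alone, which takes 1.68 from every unscaled log2 difference. Cpa1 (-1.69), Cela2a (-1.73), Ctrb1 and Prss2 (-1.74 each) and Cpb1 (-1.79) lay close to that shift, so their spots were about equally bright on both arrays. Cela1 (-2.29), Ptf1a, Bhlha15, Gp2 (-3.93) and Pnlip (-4.25) lay further below it, Cel (-1.88) slightly so, and Rbpjl (-1.30) above it. In the marker counts that follow, higher and lower mean at least 2-fold, which 12.8% and 17.3% of all genes measured passed. Beside Egfr and Erbb2, 11 of 11 measured fibroblast and stellate cell markers were higher, with sums of 246 and 924. Duct markers were higher in 5 of 12 and lower in 2, with sums of 86.2 and 422, of which Ambp and Spp1 made up 39.5 and 388 and the other 10 markers 46.6 and 33.9. Islet markers were higher in 10 of 11 (sums 382 and 2960), with glucagon (Gcg) at 4.04, and macrophage markers in 10 of 12 (sums 73.1 and 185), with Adgre1 at 2.45. Of the fat cell markers, 2 of 4 measured were higher and 1 lower, and 6 were seen in Nrdc-cKO alone (sums 29.3 and 746). Endothelial markers were higher in 4 of 10 (sums 13.9 and 29.8) and mesothelial ones in 3 of 6 (14.2 and 20.8). The rest of these 2 lists lay above 0 but short of 2-fold, except Pecam1 (-0.24) and Msln (-0.04). Mast cell and basophil markers were higher in 3 of 5 with 1 lower (3.07 and 8.44), and T and B cell ones in 1 of 6 with 2 lower (31.5 and 32.5). Kidney tubule and salivary gland, tissues that make much Egf, had 3 of 8 markers measured on both arrays. In the main scaling Umod (-1.33) and Smgc (-1.13) were lower, as Egf was, and Aqp2 stood at -0.24. Of these, 0 were lower in the value table (median -0.63) and with normexp and quantile scaling (-0.66). With the percentile over detected probes 1 was lower, as with normexp and the 75th percentile. With spike-in scaling 0 were lower and 1 was higher. The other 5, Slc12a1, Slc12a3, Slc34a1, Smr3a and Klk1b1, were detected on neither array, and the sums were 3.35 and 1.67. Of the duodenal markers 1 of 2 measured was higher (0 with normexp), and 5 of 8 were detected on neither array (sums 2.28 and 3.70). The higher counts of endothelial, mesothelial and mast cell markers ran from 1 to 10, 1 to 6 and 0 to 4 over the other scalings and the bright-probe and brightest-probe settings. The part of these cell types in the values of Egf, Egfr and Erbb2 was not tested.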

How the data were processed

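Total RNA of 2 pancreas samples was labelled with Cy3 for Agilent arrays of 1 colour, per the labels. The deposited scanner files hold 1 processed intensity per spot on a linear scale, already corrected for background and spatial trend by Agilent Feature Extraction and not normalized between arrays, per the file headers. The headers name version 12.0.3.1 and the submitters' processing notes 11.5.1.1. The table of values deposited by the authors is the same intensity times a constant (4.37 on WT, 1.92 on Nrdc-cKO), linear and not centred, with medians of 42.5 and 66.0, and the origin of the constants is unknown.

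Of 62976 spots, 59305 were not controls. Outlier spots of either array were dropped, and 0 spots were saturated. Repeat spots of a probe were averaged as log2 values and each array's 75th percentile was subtracted. Detection of a probe required a share of 0.5 or more of its spots well above background. Genes were given the mean difference of their probes detected on both arrays. For a probe detected on 1 array, a bound was taken against the dim array's lowest detected signal or the probe's own signal there, whichever was higher. Over 291 probes with repeat spots, the SD of the log2 difference between repeats had a median of 0.0316.

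Probes were named by RefSeq accession through a gene table of GRCm38.p6, which lists Nrdc under an older symbol. With 1 array per group there was no test. The members and the 20 gene lists were chosen with earlier results of these data known. The genes named from each list were those past 2-fold that lay furthest from 0, up to 4 in each direction, and the largest bounds. Up to 3 genes per marker list could be named, with no rule on their size. Other genes were named after their values were seen. The scripts were tested on simulated data. Alternatives used limma 3.58.1 for normexp (offset 50, on the median spot signal), quantile and loess scaling, and 8 E1A control probes for spike-in scaling.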

Additional observations from a re-analysis of the deposited data

How the results depend on the processing

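The members' differences and counts were recomputed under 8 other scalings or background corrections, 2 filters on dim probes, with outlier spots kept and with the brightest probe of a gene, and the counts also at 1.5-fold and 4-fold. Nrdc was not run with the brightest probe, single named genes and the Tgfa and Btc bounds were run under the 8 scalings alone, and bounds of genes outside the members were not recomputed. Egfr and Erbb2 kept a positive and Egf and Nrdc a negative difference in all that were run. With spike-in scaling Hbegf reversed to 1.04, Akt1 to 0.76, Ephb3 to 0.15 and Kit to 0.82; Egfr was 3.24, Erbb2 2.49, Egf -0.98 and Nrdc -1.32. There 3 members were higher and 0 lower, with 10370 and 115 of all genes and 98 and 1 of the 105 pathway genes (25 and 5 in the main scaling). In the authors' value table Egfr was 1.84, Erbb2 1.09, Egf -2.37, Hbegf -0.36 and Nrdc -2.71, with 2 members higher, 2888 genes higher and 1074 lower, and 41 and 3 pathway genes. With normexp and the 75th percentile Egfr was 0.89, Erbb2 0.33, Egf -2.24, Hbegf -0.62 and Nrdc -2.23, with 0 members higher, 1146 genes lower and 3 pathway genes lower. With normexp and quantile scaling these were 0.91, 0.36, -2.46, -0.50 and -2.20, with 0 members higher, 881 genes lower and 3 pathway genes lower. With the 75th percentile over detected probes Egfr was 1.51 and Erbb2 0.76, and 3 pathway genes were lower. Egf was -2.58 with loess. Without a filter on dim probes 5 members were lower, with 3108 genes higher and 8013 lower, and 9 pathway genes lower; the added members were not well above background in WT. With bright probes only, Egfr was 1.01, Erbb2 0.86 and 949 genes were higher, and by the brightest probe Egfr was 1.52 and Erbb2 0.86. At 1.5-fold, 2 members were higher and 2 lower, with 2617 and 4065 genes; at 4-fold, 0 members were higher, with 485 and 390 genes. The cause of these shifts was not tested. Scaling moved the median of all genes by up to 0.50, or 1.89 with spike-in controls. No paired analysis was possible because WT and Nrdc-cKO were 1 array each, and for that reason no replicate could be left out. Depth is set by signal over background: Erbb3, Erbb4, Areg, Ereg and 1 Btc probe had no signal well above it.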
